A study of Mus musculus with 2 samples.

Results

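The genes described here are 8 genes of autophagy and mitochondrial clearance: Bnip3l, Bnip3, Fundc1, Ulk1, Map1lc3b, Gabarapl1, Gabarapl2 and Sqstm1. They were taken by name, and all 8 had a row among the 27998 genes of both deposited matrices. They were followed along the share of globin transcripts in Car1-GFP cells and over marker-defined cell classes of unselected marrow.

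The data are 2 single-cell RNA libraries of mouse bone marrow (10x Genomics 3' chemistry, v2). The Car1-GFP library came from CD45+ cells that expressed GFP, sorted from naive Car1-GFP reporter mice on the C57BL/6 background. The marrow library came from CD45+ cells sorted as negative for CD3 and Ly6G from naive C57BL/6 mice. Each library was a pool of 3 mice, with 10000 sorted cells stated as the input, so there was 1 library per group and no animal could be told apart.

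Autophagy wraps cytoplasm or whole organelles in a double membrane and delivers them to lysosomes. Maturing red cells remove all their mitochondria largely in this way, and in mouse reticulocytes the outer-membrane receptor Bnip3l (also called Nix) is needed for that step. Receptors on the mitochondrion bind ATG8-family proteins on the growing membrane, and a kinase complex around Ulk1 starts the process.

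Because the libraries are single, no test between them or between cells was made. Counts of unique molecules (UMIs) were summed over cells and divided by the summed total, as counts per 1000000 UMIs (CPM). Each CPM has a 95% exact Poisson interval and each ratio a 95% exact binomial interval, and neither covers anything beyond counting error, such as differences between mice or preparations. A ratio was called when it reached 2-fold with at least 20 UMIs over both sides. In sums of this kind, fewer cells with the transcript and less of it per cell cannot be told apart.

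After filtering, the Car1-GFP library held 2400 cells (median 15512.5 UMIs) and the marrow library 6268 cells (median 1031 UMIs), and 13 kept barcodes occurred in both. Ptprc, which encodes the CD45 of both gates, was 13 CPM in the Car1-GFP library, against 303 CPM in the marrow library. A UMI of Ly6g occurred in 0.458% of Car1-GFP cells, against 8.98% of marrow cells, although the marrow gate was Ly6G-negative. S100a8, a neutrophil transcript, gave a UMI in 40.6% of Car1-GFP cells, against 99.9% of marrow cells. The part of free RNA in the values was not tested.

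The upstream sequence of 3 members is shown because Bnip3 was the only member called along the globin axis of Car1-GFP cells, and because the ratios of the paralogs Gabarapl1 and Gabarapl2 had opposite signs over the 8 equal groups of those cells. Each is the run of 250 bases before the RefSeq transcript start (GRCm38.p6), read 5' to 3' on the gene's strand. Capitals mark matches to the core of the hypoxia response element, ACGTG, on either strand, extended in Bnip3 to the overlapping E-box CACGTG.

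Bnip3 (chr7:138909507-138909756, minus strand): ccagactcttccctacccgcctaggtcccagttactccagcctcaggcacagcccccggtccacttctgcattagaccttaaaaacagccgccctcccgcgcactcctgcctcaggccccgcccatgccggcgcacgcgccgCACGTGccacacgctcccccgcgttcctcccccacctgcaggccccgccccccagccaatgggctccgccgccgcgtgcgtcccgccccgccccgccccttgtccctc
Gabarapl1 (chr6:129532942-129533191, plus strand): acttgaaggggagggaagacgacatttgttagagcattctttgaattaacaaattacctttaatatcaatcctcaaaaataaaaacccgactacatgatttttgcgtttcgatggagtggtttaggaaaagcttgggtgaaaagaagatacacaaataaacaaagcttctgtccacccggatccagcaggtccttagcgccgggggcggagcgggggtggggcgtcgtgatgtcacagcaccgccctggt
Gabarapl2 (chr8:111940453-111940702, plus strand): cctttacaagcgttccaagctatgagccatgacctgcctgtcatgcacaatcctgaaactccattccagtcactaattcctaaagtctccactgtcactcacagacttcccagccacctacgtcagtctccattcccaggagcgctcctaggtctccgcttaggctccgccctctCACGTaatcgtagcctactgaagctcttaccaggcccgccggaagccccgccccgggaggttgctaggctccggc

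RefSeq windows were matched for 7 of the 8 members, without Bnip3l. Of these 7, the core ACGTG was present in Bnip3, with the E-box at position -108 from the start, and in Gabarapl2 at position -75 on the other strand. The same core occurred in 16.6% of 32851 mouse windows of this length and the E-box in 6.02%. No member window held the CLEAR motif of lysosomal genes or a GATA site spelled AGATAA or TGATAA on either strand, against 0.24% and 16.6% of all windows. These matches describe letters only.

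Globin share was used as a ruler of red cell maturation in the Car1-GFP library. The 2400 cells were ordered by it and divided into 8 groups of 300, numbered from 1 (lowest) to 8 (highest). The ruler was short at its low end: groups 1 to 6 spanned 0.211% to 0.672% globin, group 7 reached 1.51%, and group 8 ran from 1.51% to 54.0%. Group 8 held 206 of the 207 cells of the late erythroid clusters. Globin genes are among the markers that name those clusters and were kept in the clustering. This overlap is therefore partly built in and is no separate check of the ruler. Of 12 stage genes, 4 were at least 2-fold higher and 2 lower in group 8 than in group 1, and 6 were not called. Among those called, Alas2 (the first enzyme of erythroid heme synthesis) was 148 CPM in group 8 and 10.5 CPM in group 1, and Kit (the stem cell factor receptor) was 12.3 and 52.9 CPM. Median UMIs were 16076 in group 8 and 13722 in group 1, and mitochondrially encoded transcripts were 3.51% and 3.37% of UMIs. In marrow classes other than erythroid cells, globin was 0.0150% to 0.118% of UMIs, below the lowest Car1-GFP group. The share of free globin RNA in groups 1 to 6 was not tested.

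Over the 8 equal groups, Bnip3l had its highest level in the top group, while Bnip3 and Fundc1 had their lowest level there. For Fundc1 this depended on the grouping and the denominator, as given with the fixed globin shares. Of the 8 members, 0 were at least 2-fold higher and 1, Bnip3, was at least 2-fold lower in group 8 than in group 1. Among 9268 measured genes, 5.71% were 2-fold higher and 14.2% lower, or 19.9% in either direction. The median log2 ratio was 0.13 over the members and -0.22 over all measured genes. With every cell weighted equally these medians were -0.31 and -0.27, and with 4 groups in place of 8 they were -0.02 and -0.14. Only the equal weighting of cells put the members' median below that of all genes.

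Bnip3l was 193, 186, 189.8, 206, 204, 206, 210.3 and 248 CPM in groups 1 to 8. The first 7 groups stayed within a narrow band and group 8 lay above them all. The log2 ratio of group 8 to group 1 was 0.36 (0.24 to 0.48), short of 2-fold.

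Bnip3, the hypoxia-inducible paralog of Bnip3l, was 14.6, 14.5, 14.9, 14.5, 9.55, 13.1, 10.3 and 4.62 CPM in groups 1 to 8. Groups 1 to 4 were level and group 8 was the lowest of all. The top value rests on 23 UMIs, against 74 in group 1, and the log2 ratio was -1.66 (-2.40 to -0.97). With 4 groups of cells in place of 8 it was -0.96 and no longer called.

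Fundc1, a receptor of the outer mitochondrial membrane linked to hypoxia, was 39.4, 34.9, 39.8, 42.3, 39.7, 42.0, 30.4 and 28.9 CPM in groups 1 to 8. The last 2 groups were the lowest. The log2 ratio was -0.45 (-0.77 to -0.13), within 2-fold.

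Ulk1, the kinase that starts autophagosome formation, was sparse throughout, between 2.98 CPM in group 7 and 5.83 CPM in group 4. Groups 8 and 1 held 19 and 17 UMIs. The log2 ratio of 0.19 (-0.84 to 1.22) left its direction unresolved at this depth, and its sign turned in 3 of 11 alternatives.

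**Figure D1:**
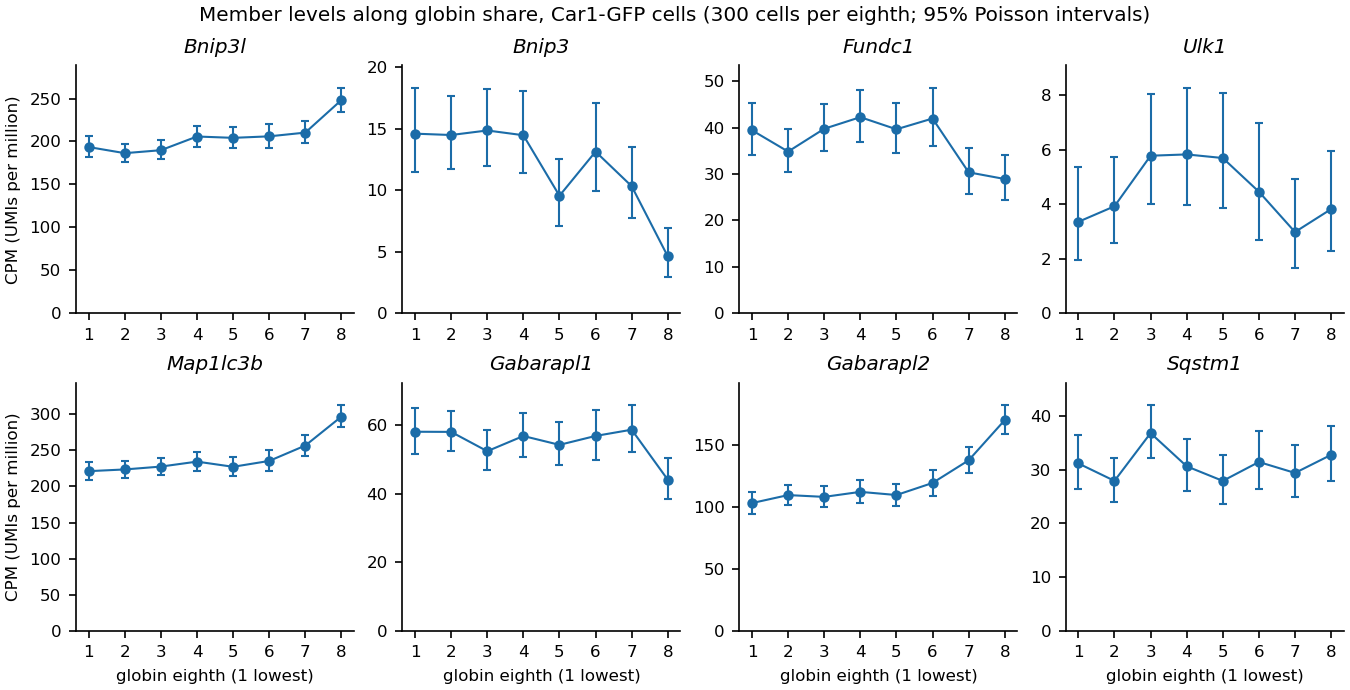
CPM of each member (y axis, from 0) in 8 groups of 300 Car1-GFP cells ordered by globin share (x axis, 1 lowest), with 95% Poisson intervals as bars. Gabarapl2 and Map1lc3b are highest in group 8, at 169.8 and 297 CPM, and Bnip3 is lowest there, at 4.62 CPM.

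The ATG8 genes encode the small proteins that are attached to autophagosome membranes and bind the receptors. Map1lc3b (LC3B) was 221, 223, 227, 234, 227, 235, 257 and 297 CPM in groups 1 to 8. Levels were flat up to group 6 and higher in groups 7 and 8. The log2 ratio of group 8 to group 1 was 0.42 (0.31 to 0.54).

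Gabarapl2 (GATE-16) was 103, 109, 108, 112, 109, 119, 137 and 169.8 CPM in groups 1 to 8. It had the same shape and the highest ratio of the 8 members, 0.72 (0.56 to 0.88) on the log2 scale, or 1.65-fold.

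Gabarapl1 was 58.0, 57.9, 52.3, 56.7, 54.2, 56.8, 58.6 and 44.0 CPM in groups 1 to 8. It was level through group 7 and lower only in group 8, at a log2 ratio of -0.40 (-0.66 to -0.14). Its sign was opposite to that of Gabarapl2 here, but not at fixed globin shares without globin UMIs, where it was 0.08 (-0.64 to 0.73).

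Sqstm1 (p62), a receptor that carries ubiquitin-tagged cargo to ATG8 proteins, ranged from 27.9 to 36.8 CPM with no order along the groups. Its log2 ratio was 0.07 (-0.25 to 0.40), and at fixed globin shares without globin UMIs it was 0.85 (0.05 to 1.55), from 17 UMIs at the highest share.

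Scaling by trimmed means (TMM) moved the median of all genes from group 8 over group 1 by 0.24 on the log2 scale and gave 8.26% of genes higher and 9.07% lower. All 8 members kept their direction under it. Relative to the median gene, Fundc1 and Gabarapl1 lay closer to no change than the ratios above. Cells of clusters given no class name, some rich in the megakaryocyte gene Pf4, numbered 5 in group 8 and 168 in group 1. The unnamed clusters of 592, 280 and 198 cells scored highest as erythroid progenitor, so leaving them out can also remove red cell progenitors. With all unnamed clusters left out and the rest regrouped, the log2 ratio was -1.55 for Bnip3, 1.0 for Gabarapl2 (short of the call) and 0.56 for Map1lc3b. It was 0.57 for Bnip3l, -0.51 for Fundc1 and -0.61 for Gabarapl1. This setting was chosen after seeing the data.

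Equal groups blur the red cells with most globin, so fixed globin shares were also used, from 0.2 to 0.5% (497 cells), 0.5 to 1% (1525), 1 to 3% (196), 3 to 10% (136) and 10% and over (46 cells). Bnip3l was 192, 201, 209.6, 260.2 and 352 CPM from the lowest to the highest share. Gabarapl2 was 104, 115, 152, 178 and 194 CPM, and Map1lc3b was 221, 232, 281, 304 and 319 CPM. The values of these 3 genes were higher at every step, but most neighbouring intervals overlapped. They were separate at the last 2 steps for Bnip3l, and for Gabarapl2 and Map1lc3b only between 0.5 to 1% and 1 to 3%.

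Their log2 ratios of the highest to the lowest share were 0.87 (0.63 to 1.11) for Bnip3l, 0.89 (0.56 to 1.21) for Gabarapl2 and 0.53 (0.27 to 0.77) for Map1lc3b. None of the 3 reached 2-fold, while 4.71% of 9378 genes were 2-fold higher and 23.9% lower, or 28.6% in either direction. Globin itself took 27.0% of all UMIs in the highest share and 0.468% in the lowest. With globin UMIs left out of the total, an alternative chosen after seeing the data, Bnip3l was 482 and 193 CPM at the highest and lowest share, a log2 ratio of 1.32 (1.08 to 1.55). On the same scale Gabarapl2 was 266 and 105 CPM, at 1.34 (1.01 to 1.66), and Map1lc3b was 436 and 222 CPM, at 0.98 (0.72 to 1.22). Bnip3l and Gabarapl2 thereby passed 2-fold, and with Bnip3 (2 UMIs, -1.27, -4.33 to 0.61) made 3 called members, where 9.08% of all genes were 2-fold higher and 11.1% lower, or 20.2% in either direction. Fundc1 turned sign on this scale, at 48.8 and 37.9 CPM and 0.37 (-0.46 to 1.09). With globin UMIs counted, Fundc1 was 37.7, 38.8, 32.1, 24.8 and 35.7 CPM from the lowest to the highest share, so it was lowest at 3 to 10%.

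Counted per cell, the molecules were no more numerous at the highest share. Cells of 10% globin and over held 3.43 Bnip3l UMIs each, against 3.69 in the lowest share, with median depths of 7450.5 and 16253 UMIs. Map1lc3b was 3.11 and 4.23 UMIs per cell, and Gabarapl2 was 1.89 and 2.0. Between these ends, cells of 1 to 3% globin held 4.34, 5.81 and 3.14 UMIs of Bnip3l, Map1lc3b and Gabarapl2, at a median depth of 19732.5.

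Bnip3 was 14.7, 13.2, 4.68, 4.36 and 4.46 CPM over the fixed shares, so the step lay near 1% globin. The highest share held only 2 of its UMIs, and the log2 ratio was -1.72 (-4.78 to 0.16). Kit made a similar step, at 52.3, 44.5, 10.1, 13.1 and 15.6 CPM.

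At an equal 4000 UMIs per cell, a Map1lc3b UMI was found in 72.3% of cells of group 8 and 56.0% of group 1, and a Gabarapl2 UMI in 53.3% and 32.7%. Bnip3l was found in 61.3% and 59.7% of cells, which differ by less than their intervals. Over the fixed shares, low to high, Bnip3l was found in 59.8%, 60.5%, 53.1%, 66.2% and 69.6% of cells at this depth, so it did not climb at every step. Unthinned, these shares lay between 93.0% and 97.1%. Without thinning the shares were 97.0% and 93.3% for Map1lc3b, 91.7% and 71.7% for Gabarapl2 and 96.3% and 92.7% for Bnip3l. No class of these cells is known to lack the genes, so no background share could be set beside them. Thinning drew from all UMIs, globin included. Cells of 10% globin and over had a median globin share of 45.3%, so fewer of their 4000 UMIs came from other genes.

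**Figure D2:**
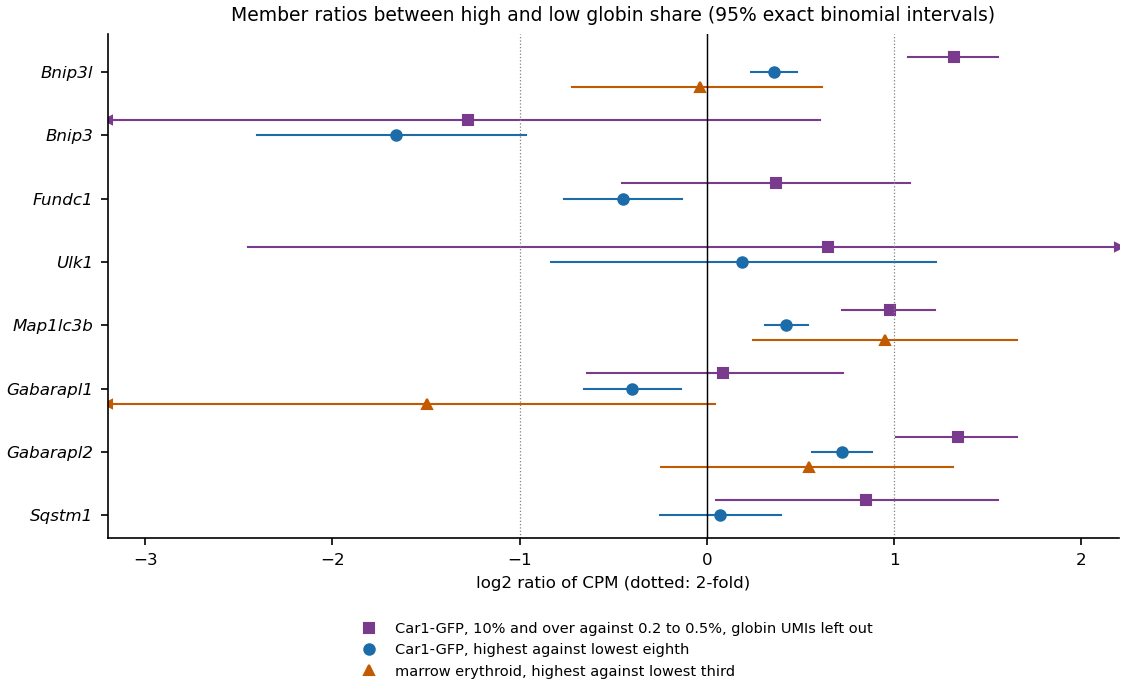
Log2 ratio of CPM (x axis, dotted lines at 2-fold) for each member between high and low globin share, with 95% exact binomial intervals: Car1-GFP cells at fixed shares without globin UMIs (squares), Car1-GFP group 8 over group 1 (circles), and marrow erythroid cells, top over bottom part (triangles, drawn for the 4 members with at least 20 UMIs). Arrowheads mark intervals that run past the axis. Bnip3l reads 1.32 at fixed shares without globin and -0.04 in marrow erythroid cells.

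The same axis was laid through the erythroid class of the marrow library, 270 cells with a median of 2604.5 UMIs, cut into 3 parts of 90 cells. Globin was 0 to 0.0425% in the lowest part, 0.0426 to 0.991% in the middle and 1.0 to 93.6% in the highest, with median depths of 3801, 2956 and 1526 UMIs. Only 4 of the 8 members reached 20 UMIs over the highest and lowest parts, and 1 of these 4 was called, Gabarapl1. Of 3491 measured genes, 10.7% were 2-fold higher and 17.2% lower, or 27.9% in either direction. Under TMM these shares were 13.4% higher and 14.1% lower.

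Gabarapl1 was 67.5, 30.7 and 24.0 CPM from the lowest to the highest part, from 25, 9 and 4 UMIs. The log2 ratio was -1.49 (-3.48 to 0.04), with an interval that includes no change. In Car1-GFP cells the ratio was -0.40 over the equal groups and 0.08 at fixed shares without globin UMIs. Map1lc3b was 105, 136 and 204 CPM, at a log2 ratio of 0.95 (0.25 to 1.65). Gabarapl2 was 103, 102 and 149.8 CPM, at 0.55 (-0.24 to 1.31).

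Bnip3l was 178, 150.1 and 174 CPM over the 3 parts. Its ratio of -0.04 (-0.72 to 0.61) had no clear direction, and its sign turned in 3 of 5 alternatives. Bnip3 gave 0 UMIs in the highest part and 9 in the lowest, Fundc1 gave 2 and 12, Ulk1 gave 3 and 10, and Sqstm1 gave 3 and 9. These 4 genes were too sparse for a ratio.

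Across marrow classes, Gabarapl1 was highest in erythroid cells, with stem and multipotent progenitors next and not separated from them by their intervals. It was 45.8 CPM in erythroid cells (38 UMIs) and 13.1 CPM in all other marrow cells (98 UMIs), a log2 ratio of 1.80 (1.22 to 2.36), or 3.49-fold. It was the only 1 of the 8 members called in this comparison, in which 17.1% of 10429 genes were 2-fold higher and 22.5% lower in erythroid cells, or 39.6% in either direction. Bnip3l, the receptor of red cell mitochondrial clearance, was 167 CPM in erythroid cells and 129 CPM in the others, at 0.37 (0.11 to 0.63). Fundc1 was 22.9 and 43.2 CPM, at -0.92 (-1.67 to -0.25), and it passed 2-fold lower under TMM.

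The remaining members were closer. Ulk1 had 16.9 CPM in erythroid cells and 10.0 CPM in the others (0.75, -0.19 to 1.58), Sqstm1 had 30.1 and 22.9 CPM (0.40, -0.27 to 1.01), and Bnip3 had 12.0 and 16.1 CPM (-0.42, -1.51 to 0.51). Map1lc3b had 136 and 129 CPM, and Gabarapl2 had 112 and 119 CPM. For these 5 genes the intervals of the log2 ratio included 0, and the sign turned under at least 1 alternative for Map1lc3b and Gabarapl2.

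**Figure D3:**
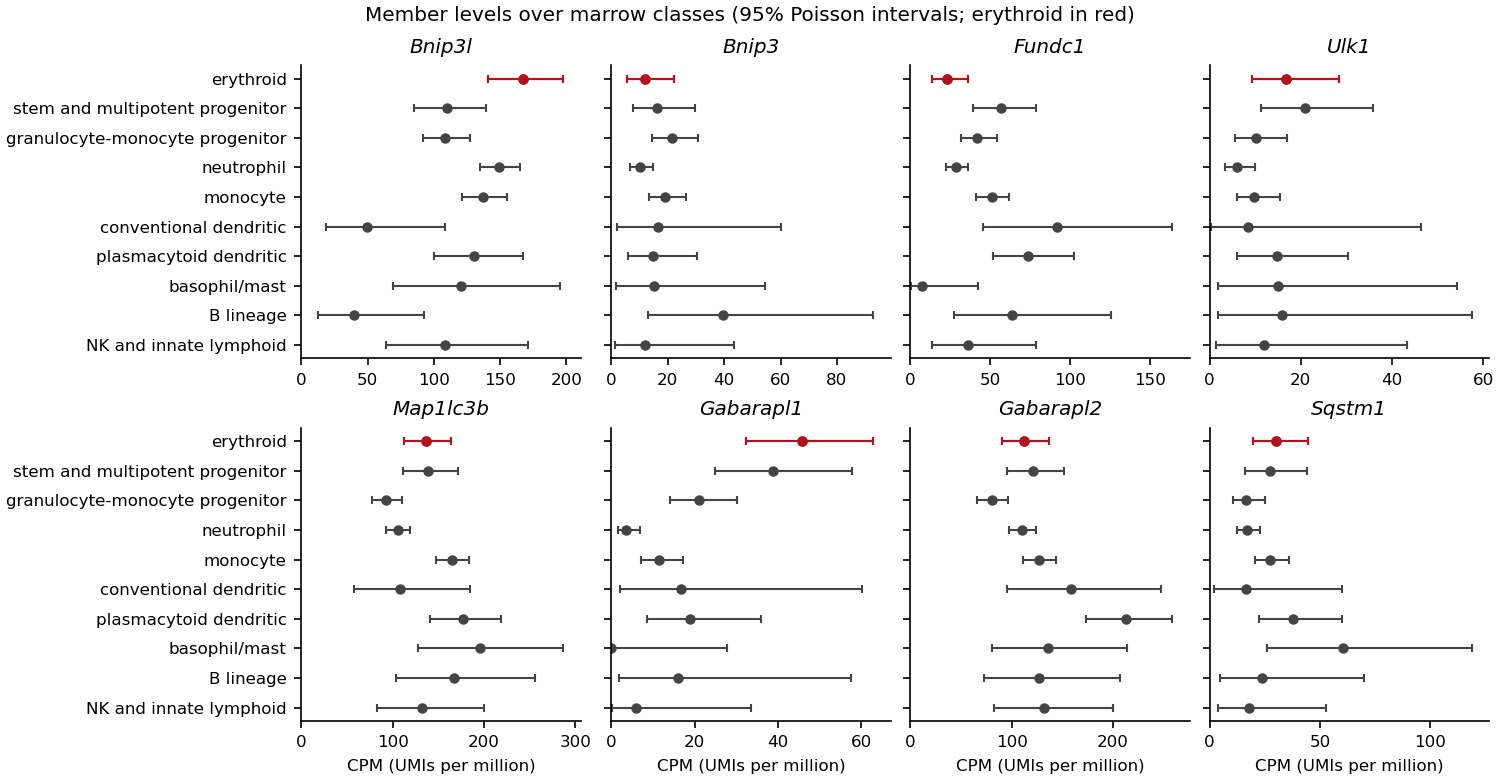
CPM of each member (x axis, from 0) in 10 marrow classes of at least 50 cells (y axis), with 95% Poisson intervals as bars and erythroid cells in red. Gabarapl1 is highest in erythroid cells, at 45.8 CPM, and Gabarapl2 in plasmacytoid dendritic cells, at 213 CPM.

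The order of levels over the 10 classes differed between the receptors. Bnip3l had its top level in erythroid cells (167 CPM), then neutrophils (149 CPM) and monocytes (137 CPM), and its lowest in conventional dendritic cells (49.9 CPM, 6 UMIs) and B-lineage cells (39.8 CPM, 5 UMIs). Fundc1 had another order, with 91.5 CPM in conventional dendritic cells (11 UMIs) and 73.7 CPM in plasmacytoid dendritic cells, and 28.6 CPM in neutrophils, 22.9 CPM in erythroid cells and 7.53 CPM in basophil and mast cells (1 UMI). Bnip3 rested on 37 UMIs or fewer in every class, with 39.8 CPM in B-lineage cells from 5 UMIs and 10.1 CPM in neutrophils from 25.

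Gabarapl1 followed erythroid cells with 38.8 CPM in stem and multipotent progenitors and 20.9 CPM in granulocyte-monocyte progenitors. It was 3.62 CPM in neutrophils (9 UMIs), a log2 ratio of -2.59 (-3.75 to -1.62) to all other marrow cells, against 50.3% of genes at least 2-fold apart in that class. There the median log2 ratio of all genes was -0.90, 7 of the 8 members lay below 0 and 2 were called lower. Basophil and mast cells gave 0 Gabarapl1 UMIs, which at their total of 132891 UMIs is a weak limit. Stem and multipotent progenitors were called for 2 members over all other marrow cells, against 15.4% of genes 2-fold higher: Gabarapl1 at 1.41 (0.71 to 2.06), from 24 UMIs, and Ulk1 at 1.09 (0.11 to 1.95), from 13 UMIs. The name of this class, whose top gene was Pf4, depended on the clustering. At Leiden resolution 2, and with only cells of at least 1000 UMIs, no cluster took it. In both settings a Pf4-led cluster scored highest as megakaryocyte. B-lineage cells, conventional dendritic cells, and basophil and mast cells each had 1 member called higher and 1 lower. NK and innate lymphoid cells had 1 lower. These calls rest on 11 UMIs or fewer in the class, and the shares of all genes there are not given. The counts for these classes are therefore not read as a result about the members.

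Gabarapl2 had 213 CPM in plasmacytoid dendritic cells and 80.2 CPM in granulocyte-monocyte progenitors, its 2 extremes, with erythroid cells eighth of 10 at 112 CPM. Map1lc3b ranged from 196 CPM in basophil and mast cells (26 UMIs) to 93.2 CPM in granulocyte-monocyte progenitors, and Sqstm1 from 60.2 CPM (8 UMIs) to 16.6 CPM in the same 2 classes. Over all 8 genes, neighbouring classes in each order had overlapping intervals, except neutrophils over granulocyte-monocyte progenitors for Gabarapl2. Class depths ran from a median of 772 UMIs in plasmacytoid dendritic cells to 2604.5 in erythroid cells.

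By likeness of log2(CPM + 10) over the 10 classes among 4622 genes, Bnip3l was closest to Nfe2l2 (Pearson r 0.89), Slc35a4 and Insr. Fundc1 was closest to Tspyl1 (0.97), Chuk and Gna13, Map1lc3b to Rmnd5a (0.93), Med30 and Chmp1a, and Gabarapl2 to Msmo1 (0.92), H2-T23 and Fyn. Over the 8 globin groups of Car1-GFP cells, Bnip3 was closest to Exoc3, Eif4b and Slc25a13 (each 0.99, among 8031 genes). These values share libraries and depth and are descriptions of order only.

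Between whole libraries, the Car1-GFP cells had more Gabarapl1 and less Ulk1. Gabarapl1 was 54.9 CPM in the Car1-GFP library, against 16.4 CPM in the marrow library, with a log2 ratio of 1.74 (1.49 to 2.0), and Ulk1 was 4.51 and 10.7 CPM, at -1.25 (-1.62 to -0.87). These were the 2 members called, 1 higher and 1 lower, among 12076 genes of which 22.2% were 2-fold higher and 32.7% lower, or 54.9% in either direction. Map1lc3b was 239 and 130 CPM (0.88, 0.79 to 0.97) and passed 2-fold under TMM, at 1.10, and DESeq2 factors, at 1.09. TMM moved the median of all genes by 0.22.

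Bnip3l was 204 CPM in the Car1-GFP library, against 133 CPM in the marrow library (0.62, 0.53 to 0.71), and Sqstm1 was 31.0 and 23.6 CPM (0.39, 0.18 to 0.62). Bnip3 was 12.2 and 15.7 CPM (-0.37, -0.65 to -0.08). Gabarapl2 was 120.1 and 118 CPM (0.03, -0.07 to 0.13), and Fundc1 was 37.1 and 41.2 CPM (-0.15, -0.32 to 0.02). The sign of Fundc1 turned under TMM and DESeq2 factors.

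Setting the Car1-GFP cells against the 270 marrow erythroid cells alone, a comparison added after seeing the data, left Gabarapl1 without a call: 54.9 CPM in Car1-GFP cells and 45.8 CPM in marrow erythroid cells, at 0.26 (-0.20 to 0.76). Ulk1 stayed lower at 4.51 and 16.9 CPM, at -1.90 (-2.68 to -1.0), from 14 UMIs on the marrow side. It was the only member called there, where 12.5% of 11086 genes were higher and 27.4% lower, or 40.0% in either direction. Fundc1 changed side, to 37.1 and 22.9 CPM, at 0.70 (0.05 to 1.43).

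**Figure D4:**
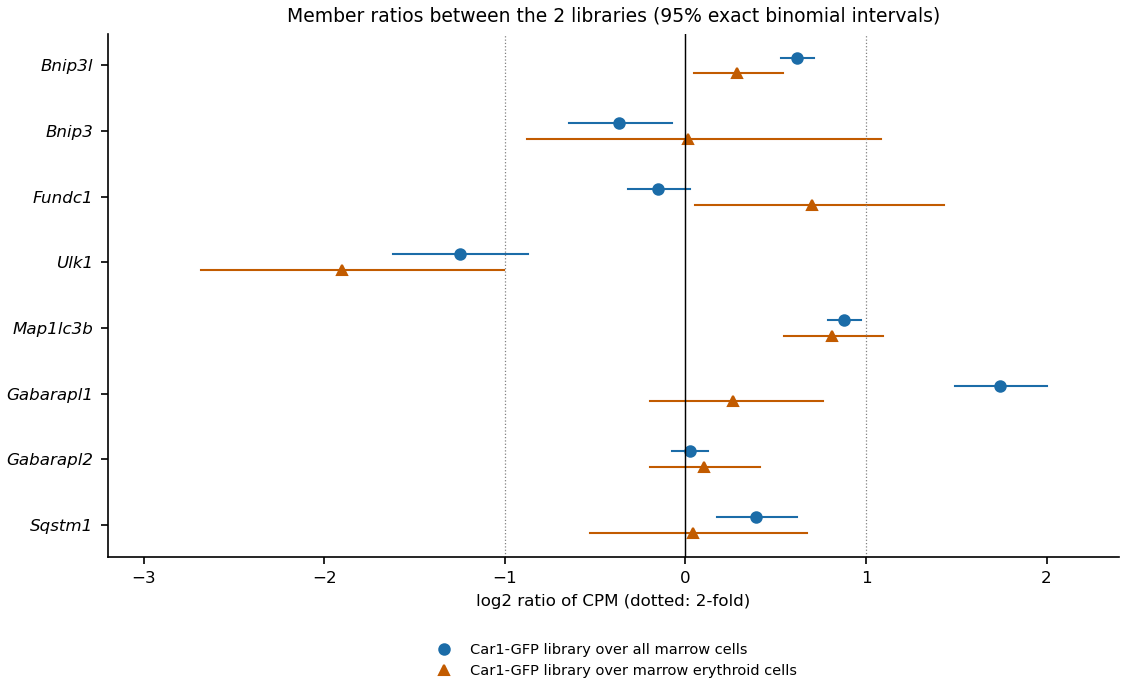
Log2 ratio of CPM (x axis, dotted lines at 2-fold) of the Car1-GFP library over all marrow cells (circles) and over marrow erythroid cells alone (triangles), with 95% exact binomial intervals. Gabarapl1 reads 1.74 against all marrow and 0.26 against erythroid cells, and Ulk1 is lower in both, at -1.25 and -1.90.

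Around the members, 81 further genes in 8 lists cover the rest of the route. From group 1 to group 8 of the Car1-GFP cells, most lists lay near the median of all genes, -0.22. Of all measured genes, 5.71% were 2-fold higher and 14.2% lower. In initiation and nucleation, 1 of 17 measured genes was 2-fold higher and 1 lower (median -0.36): Wipi1, which binds the phosphoinositide of the early membrane, was 42.4 CPM in group 8 and 16.6 CPM in group 1, at 1.36 (0.98 to 1.74), and the lipid kinase Pik3c3 was 4.02 and 8.88 CPM, at -1.14 (-1.98 to -0.35). In ATG8 conjugation, 2 of 10 were higher and 0 lower (median -0.34). Both were proteases that trim ATG8 proteins: Atg4a was 29.1 and 10.8 CPM, at 1.43 (0.97 to 1.90), and Atg4d was 32.0 and 14.6 CPM, at 1.13 (0.72 to 1.55).

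Of the other ATG8 genes neither was called, with Gabarap at 279 and 205 CPM in groups 8 and 1 (0.44, 0.33 to 0.56) and Map1lc3a at 16.9 and 10.7 CPM (0.66, 0.15 to 1.19). Other cargo receptors had 0 of 6 called (median -0.10), with Optn at 49.0 and 74.6 CPM (-0.60, -0.84 to -0.37). In the PINK1 and Parkin route 0 of 7 were higher and 1 lower (median -0.27), Usp30, a mitochondrial deubiquitinase, at 8 and 17 UMIs (-1.06, -2.48 to 0.23). March5, a mitochondrial ubiquitin ligase, was 204 and 116 CPM (0.81, 0.66 to 0.96).

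Fusion with lysosomes had 1 of 10 higher and 0 lower (median 0.16): the lysosomal protease Ctsb was 204 CPM in group 8 and 79.7 CPM in group 1, at 1.35 (1.19 to 1.52), and Ctsd was 246 and 145 CPM, at 0.76 (0.63 to 0.89). Control of autophagy had 0 of 12 higher and 1 lower (median -0.37): Ddit4, an inhibitor of mTORC1 induced by stress, gave 7 and 33 UMIs, at -2.21 (-3.63 to -1.01). None of the 12 mitochondrial content genes was called (median -0.30). The mitochondrial chaperones Hspd1, at 343 and 601 CPM (-0.81, -0.90 to -0.72), and Hspa9, at 179 and 274 CPM (-0.61, -0.74 to -0.49), were the lowest, and the import receptor Tomm20 was 619.9 and 912 CPM (-0.56, -0.62 to -0.49).

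**Figure D5:**
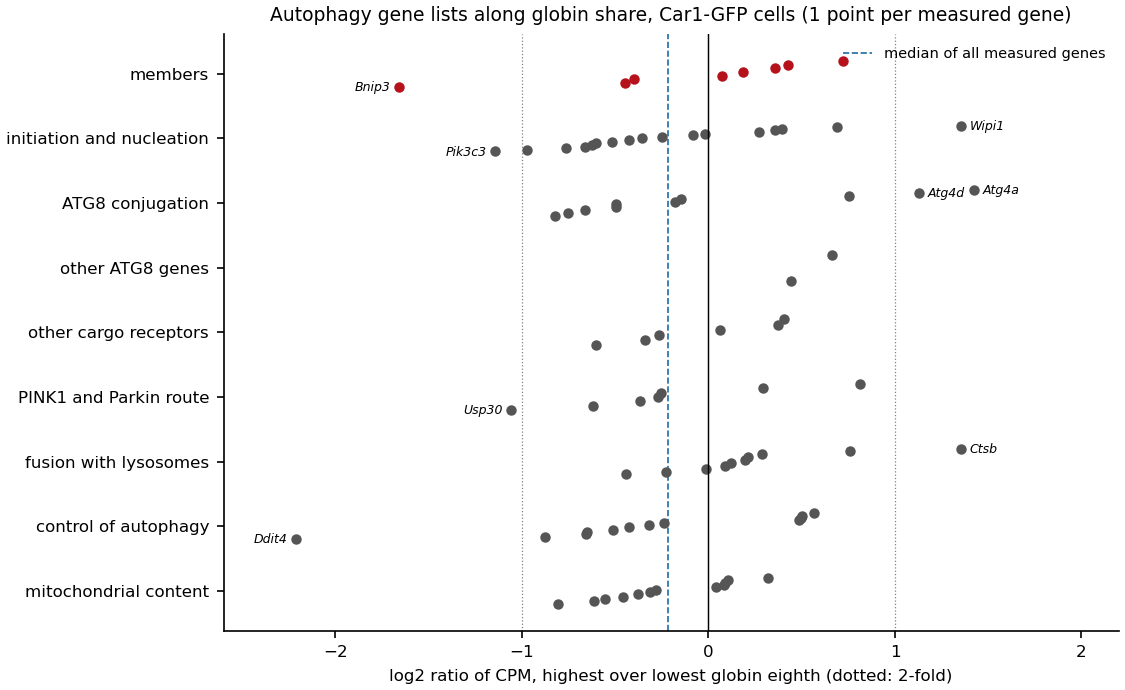
Log2 ratio of CPM, group 8 over group 1 of Car1-GFP cells (x axis, dotted lines at 2-fold), with 1 point for each measured gene of the members (red) and 8 pathway lists (grey, y axis). The dashed line is the median of all measured genes, -0.22. Wipi1, Atg4a, Atg4d and Ctsb lie above 2-fold, and Bnip3, Pik3c3, Usp30 and Ddit4 below.

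In the marrow erythroid cells, the top part over the bottom part gave 3 of 12 mitochondrial content genes 2-fold lower and 0 higher (median -0.80, all genes -0.19). Of all genes measured there, 10.7% were 2-fold higher and 17.2% lower. Hspd1 was 95.9 and 448 CPM (-2.22, -3.06 to -1.48), Tomm20 was 198 and 502 CPM (-1.34, -1.92 to -0.80), and Hspa9 was 149.8 and 354 CPM (-1.24, -1.92 to -0.61). Ctsb was again higher, at 179.8 and 67.5 CPM (1.41, 0.60 to 2.24). Of the other lists, 1 of 5 cargo receptors was lower (Optn, 4 and 19 UMIs), 1 of 6 fusion genes higher (Ctsb), and 1 of 5 control genes higher (Prkag1, 10 and 11 UMIs) and 1 lower (Nfe2l2, 7 and 41 UMIs). None of the 2 initiation, 1 conjugation, 1 other ATG8 and 1 PINK1 route genes measured was called.

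Across libraries, 10 of the 12 mitochondrial content genes were 2-fold higher in Car1-GFP cells and 0 lower (median 1.47, all genes -0.23), among them Tomm20 at 864 CPM in Car1-GFP cells, against 169 CPM in marrow cells (2.35, 2.28 to 2.43). Of all genes, 22.2% were 2-fold higher and 32.7% lower, and several of the list counts below lie near these shares. Lysosome fusion had 0 of 10 higher and 3 lower (median -0.57), led by the membrane protein Lamp2 at 30.8 and 184 CPM (-2.58, -2.69 to -2.48). Control of autophagy had 1 of 13 higher and 3 lower (median -0.26), with the lysosomal transcription factor Tfeb at 1.22 and 14.6 CPM (-3.58, -4.08 to -3.10). Other cargo receptors had 2 of 8 higher and 2 lower (median 0.06): Optn was 66.7 and 10.1 CPM (2.72, 2.41 to 3.05), and the ferritin receptor Ncoa4 was 1.36 and 11.9 CPM (-3.14, -3.63 to -2.66). The PINK1 and Parkin route had 3 of 8 higher and 1 lower (median 0.33), with Pink1 at 31.8 and 11.9 CPM (1.42, 1.12 to 1.73). Initiation had 3 of 17 higher and 4 lower (median -0.41), conjugation 1 of 11 higher and 2 lower (median -0.29), and neither other ATG8 gene was called (median -0.50). Against marrow erythroid cells alone, mitochondrial content had 3 of 12 higher and 0 lower (median 0.64, all genes -0.20). Lysosome fusion there had 0 of 10 higher and 1 lower (median 0.13). In that comparison 12.5% of all genes were 2-fold higher and 27.4% lower.

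In marrow erythroid cells over other marrow cells, 5 of 12 mitochondrial content genes were higher and 0 lower (median 0.91, all genes 0.08), and 5 of 10 fusion genes were lower and 0 higher (median -0.90). Of all genes, 17.1% were 2-fold higher and 22.5% lower. Among cargo receptors 3 of 8 were higher and 2 lower (median 0.26). Optn was 34.9 CPM in erythroid cells and 7.36 CPM in the others (log2 ratio 2.25), and Bcl2l13, an outer-membrane mitophagy receptor, was 62.6 and 14.3 CPM (2.13). Initiation had 2 of 17 higher and 3 lower (median 0.21), conjugation 0 of 11 higher and 2 lower (median 0.04), the PINK1 and Parkin route 2 of 7 higher and 1 lower (median 0.39), and control of autophagy 0 of 13 higher and 2 lower (median 0.47). Of the other ATG8 genes, Map1lc3a was lower, at 9.63 and 22.3 CPM (-1.21).

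In mm10 with the GENCODE M21 annotation, all 8 members are protein-coding and their whole gene spans are, on the minus strand, Bnip3l at chr14:66985239-67008877, Bnip3 at chr7:138890836-138909519, Fundc1 at chrX:17556564-17572325, Ulk1 at chr5:110784488-110810097 and Sqstm1 at chr11:50199366-50210827. On the plus strand lie Map1lc3b at chr8:121590361-121598760, Gabarapl1 at chr6:129533160-129542346 and Gabarapl2 at chr8:111940703-111953612. Other genes overlap the last 1000 bases of Bnip3 (Gm45507), Map1lc3b (Gm20388 and Zcchc14) and Sqstm1 (Mrnip), so counts of these 3 members are uncertain where reads could be assigned to either gene. Of the overlapping genes with a row, Gm20388 had 0 UMIs in both libraries and Zcchc14 had 0 in Car1-GFP cells and 1 in marrow cells.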

How the data were processed

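The authors deposited UMI counts per gene and barcode as sparse matrices. The submitters' processing notes name Cell Ranger 2.1 and Seurat 2 on mm10. The values were read in as whole numbers. Whether reads were counted by strand is not given in the sources used here. Gene positions come from GENCODE M21, in which 27645 of 27998 identifiers were found.

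Barcodes under 500 UMIs (0 of them) or at 10% mitochondrial UMIs and above were removed, 122 in the Car1-GFP library and 19 in the marrow library. Scrublet called 9 Car1-GFP barcodes (0.375%), too few to be taken as a working call, so they were kept, and 171 marrow barcodes (2.66%), which were removed. Of 2522 and 6458 barcodes, 2400 and 6268 remained, with 42795219 and 8303633 UMIs. A count of 0 was set to 3 counts over the total of the group compared. That is 0.0701 CPM for the whole Car1-GFP library and 0.361 CPM for the whole marrow library. It is more in smaller groups, such as 18.0 CPM in the highest part of the marrow erythroid cells.

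Clustering was run per library with scanpy 1.11.5 (2000 variable genes, 30 components, 15 neighbours, Leiden resolution 1), without 89 genes of the members and the pathway lists. Clusters were named from markers of 17 classes, by the class with the highest mean marker ratio, with at least 3 of its markers at 2-fold. A cluster stayed unnamed if another class had more markers among its top 10 genes. For the marker ratios, marrow clusters were set against the other marrow cells and Car1-GFP clusters against the marrow library. The marrow erythroid class is 1 cluster, named late erythroid, that also holds early cells. The stem and multipotent progenitor class had Pf4 as its top gene, and its name changed with the clustering. In the Car1-GFP library 1112 cells lay in erythroid progenitor clusters, 207 in late erythroid clusters and 1081 in unnamed clusters. The unnamed clusters include Pf4-rich cells and 11 cells led by S100a8. Apart from those 11 cells, they scored highest as erythroid progenitor.

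CPM, intervals and ratios were computed from summed counts and the calculation was tested on simulated data. The named pathway genes are up to 3 per list and comparison with the largest ratios, and some of those are given as counts alone. The likeness rule took genes with at least 200 UMIs. The members and lists were chosen with earlier results of these data known. The alternatives used TMM factors (edgeR 4.0.16), DESeq2 1.42.0 size factors, other filters, other groups of cells and other clusterings.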

Additional observations from a re-analysis of the deposited data

How the results depend on the processing

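No paired analysis was possible because each group is 1 library. The count of members at least 2-fold apart was 2 between libraries, and became 1 when the marrow side was the erythroid class alone. Against that class, 12.5% of all genes were higher and 27.4% lower. Under TMM and under DESeq2 factors, 2 members were called higher and 1 lower. Of all genes, 27.2% were higher and 28.9% lower under TMM, and 26.9% and 29.1% under DESeq2 factors. Along the globin groups of Car1-GFP cells the count of members was 1, and became 0 with 4 groups in place of 8, and 3 with fixed globin shares and globin UMIs left out. With 4 groups, 4.03% of genes were higher and 6.31% lower, and with those fixed shares 9.08% and 11.1%. For erythroid over other marrow cells the count was 1, and became 2 under TMM, where 13.6% of genes were higher and 25% lower. Within marrow erythroid cells the count was 1, and became 2 with globin UMIs left out, 2 with no minimum of UMIs and 2 under TMM. Genes higher and lower were 12.5% and 14.3% without globin UMIs, and 13.4% and 14.1% under TMM. With no minimum, 8 members were measured in place of 4, and 14.6% of genes were higher and 13.8% lower. The construction of the alternatives changes the groups or the denominator; other causes were not tested. Of the members' single ratios, 15 of 56 moved beyond the counting interval between libraries, 18 of 88 along the globin groups, 0 of 64 between marrow classes and 0 of 20 within marrow erythroid cells. Some alternatives could not move a ratio. Leiden resolution 0.5 and another seed gave the same marrow erythroid class of 270 cells, and dropping the UMI minimum leaves a measured ratio as it was. Many counting intervals in marrow were also wide, so the 0 counts do not show that the marrow ratios are stable. Depth was a median of 15512.5 UMIs in Car1-GFP cells, against 1031 in marrow cells, which limits Bnip3, Ulk1, Gabarapl1 and Sqstm1 most, with 89 to 196 marrow UMIs each.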
